A study of Mus musculus with 12 samples.

Results

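The 10 genes described here are the regulatory and activated T cell genes Foxp3, Ikzf2, Ikzf4, Il2ra, Tnfrsf4, Tnfrsf18, Tnfrsf9, Ctla4, Icos and Pdcd1, out of 41128 genes in the expression table. They were taken by name, and the set was chosen from measured values, because several of them stood out in the T cell libraries numbered 6 beside those numbered 4 and 5. That difference is therefore given as a description, with no test. Spleens came from C57BL/6J mice 6 to 8 weeks old, and RNA was sequenced in 12 libraries that form 4 groups of 3. Female and male resting B cells, lacking surface CD43, gave the libraries numbered 1 to 3 in each sex. Female and male naive CD4+CD62L+ T cells gave those numbered 4 to 6. The mice were an inbred strain with no treatment, and per the labels and methods the libraries came from pools of mice. The T cells were first depleted with beads of CD25+ and γ/δ T cells and of other lineages, and were then sorted as CD4+, CD62L high, CD44 low and CD25-.

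Regulatory T cells are CD4+ cells that restrain immune responses. Their program is held by the transcription factor FOXP3, helped by the Ikaros family factors Helios (Ikzf2) and Eos (Ikzf4), and their high-affinity IL-2 receptor contains the alpha chain CD25 (Il2ra). They carry the inhibitory receptor CTLA-4, which competes with the costimulatory receptor CD28 for shared ligands, and tumour necrosis factor receptors such as GITR (Tnfrsf18) and OX40 (Tnfrsf4). Conventional T cells switch on many of the same genes after antigen contact, when ICOS, CD137 (Tnfrsf9) and PD-1 (Pdcd1) also appear on the surface. Expression of these genes therefore does not by itself name a cell type, and in bulk RNA, fewer cells of a type and less RNA per cell cannot be told apart.

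The deposited value is named adjusted TPM, where TPM is a share of transcripts corrected for gene length. It comes with a lower and an upper bound. The adjustment and the level of the bounds are not given in the sources used here. Between 11122 and 11543 genes reached 1 adjusted TPM per library. Summed values ranged from 561020 to 1453940. In the library with the highest sum, male T 6, the single gene Yam1 took 37.4% of it. The sorted identities were plain: the 7 T cell identity genes summed to between 1397 and 1748 in the T cell libraries and to between 10.3 and 14.3 in the B cell libraries. The 6 B cell markers summed to between 2951 and 3334 in the sorted B cells, against 0.900 to 5.79 in the T cells.

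Promoter sequence was at hand for 7 of the 10 genes, in 9 windows (RefSeq, build GRCm38.p6, the build of the files). The 250 bases before the start of 4 of them are shown because these are the promoters of genes that stood higher together, or, for Il2ra, with the highest ratio, in the values that follow. Capitals mark matches to the motifs searched on both strands, and here all of them are TTTCCA, the reverse of TGGAAA, the core that NFAT factors recognize. The windows are chr1:60908775-60909024 for Ctla4, chr4:156013445-156013694 for Tnfrsf4, chrX:7580233-7580482 for the second start of Foxp3 and chr2:11642542-11642791 for Il2ra, all on the plus strand.
Ctla4: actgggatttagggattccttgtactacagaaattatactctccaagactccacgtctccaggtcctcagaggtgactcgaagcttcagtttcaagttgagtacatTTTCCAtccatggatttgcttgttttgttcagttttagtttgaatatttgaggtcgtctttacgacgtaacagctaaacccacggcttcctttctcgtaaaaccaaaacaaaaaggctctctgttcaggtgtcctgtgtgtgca
Tnfrsf4: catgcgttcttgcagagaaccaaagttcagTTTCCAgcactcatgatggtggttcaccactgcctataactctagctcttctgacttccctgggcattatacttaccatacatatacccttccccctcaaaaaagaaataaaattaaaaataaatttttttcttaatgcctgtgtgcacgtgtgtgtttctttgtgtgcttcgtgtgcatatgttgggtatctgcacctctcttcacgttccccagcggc
Foxp3: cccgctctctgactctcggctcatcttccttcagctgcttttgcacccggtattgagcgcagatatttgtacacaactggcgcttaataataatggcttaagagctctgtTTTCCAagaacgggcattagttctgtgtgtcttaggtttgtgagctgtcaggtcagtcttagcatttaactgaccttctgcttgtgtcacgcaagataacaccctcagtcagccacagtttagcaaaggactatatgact
Il2ra: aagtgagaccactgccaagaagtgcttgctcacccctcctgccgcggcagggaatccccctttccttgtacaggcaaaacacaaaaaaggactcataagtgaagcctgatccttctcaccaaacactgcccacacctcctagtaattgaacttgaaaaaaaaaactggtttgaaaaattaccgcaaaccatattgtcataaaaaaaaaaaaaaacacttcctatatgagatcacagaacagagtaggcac
The match began 144 bases before the start in Ctla4, 220 in Tnfrsf4 and 140 in Foxp3, and the first start of Tnfrsf9 held one 221 bases before it. The second start of Tnfrsf9 held TGAGTCA, a match to the AP-1 motif TGANTCA, 15 bases before it and TTCCCA, the reverse of the Ikaros motif TGGGAA, 37 bases before it. The first start of Foxp3, whose sequence is not shown, held an Ikaros match only after the start. Starts are those of RefSeq, and the Foxp3 and Ctla4 windows lie inside the gene spans given below. No 300-base window of Il2ra, Tnfrsf18 or Pdcd1 held any of the 5 motifs, which also included TGTTTAC (forkhead) and TGACGTCA (CRE). Among 32851 promoter windows of 300 bases, 21.4% held the NFAT letters, 25.6% the Ikaros letters, 7.81% the AP-1 letters, 3.65% the forkhead letters and 1.79% the CRE letters. The matches are a description of letters only.

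Of the transcription factors, Helios and FOXP3 transcripts stood several-fold higher in both libraries numbered 6. Foxp3 (chromosome X, 7573644 to 7595245, plus strand, in GENCODE on GRCm38) was at 2.57 in female T 6 and 1.82 in male T 6. It lay at 0.735 and 0.579 in female T 4 and 5, and at 0.440 and 0.654 in male T 4 and 5. Its B cell libraries lay between 0.146 and 0.323, so the T cell libraries numbered 4 and 5 were just above the highest B cell library, and the libraries numbered 6 well above both. Foxp3 reached 1 adjusted TPM in those 2 libraries alone and was left out of the tested genes, which had to reach it in 3.

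Ikzf2 (chromosome 1, 69531214 to 69687245, minus strand) was at 13.4 and 11.3 in female and male T 6. The other 4 T cell libraries held 2.07, 1.68, 1.07 and 1.29, and no B cell library exceeded 0.040. The mean of the libraries numbered 6 was 8.07 times that of the others, and among the tested genes and Foxp3 ranked together by log2 difference only 1 was higher. Ikzf4 (chromosome 10, 128630843 to 128645991, minus strand) was at 2.19 and 2.06 in female and male T 6 and at 0.862, 0.842, 0.805 and 1.09 in the other T cell libraries, a ratio of 2.36. In B cells it did not exceed 0.0036. All 3 factors had both libraries numbered 6 above every other T cell library. The other Ikaros family members were expressed in both lineages at higher levels. Ikzf1 averaged 221 in the T cell libraries numbered 4 and 5 and 223 in those numbered 6, and Ikzf3, which B cells held at 179, averaged 19.2 and 28.3.

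**Figure D1:**
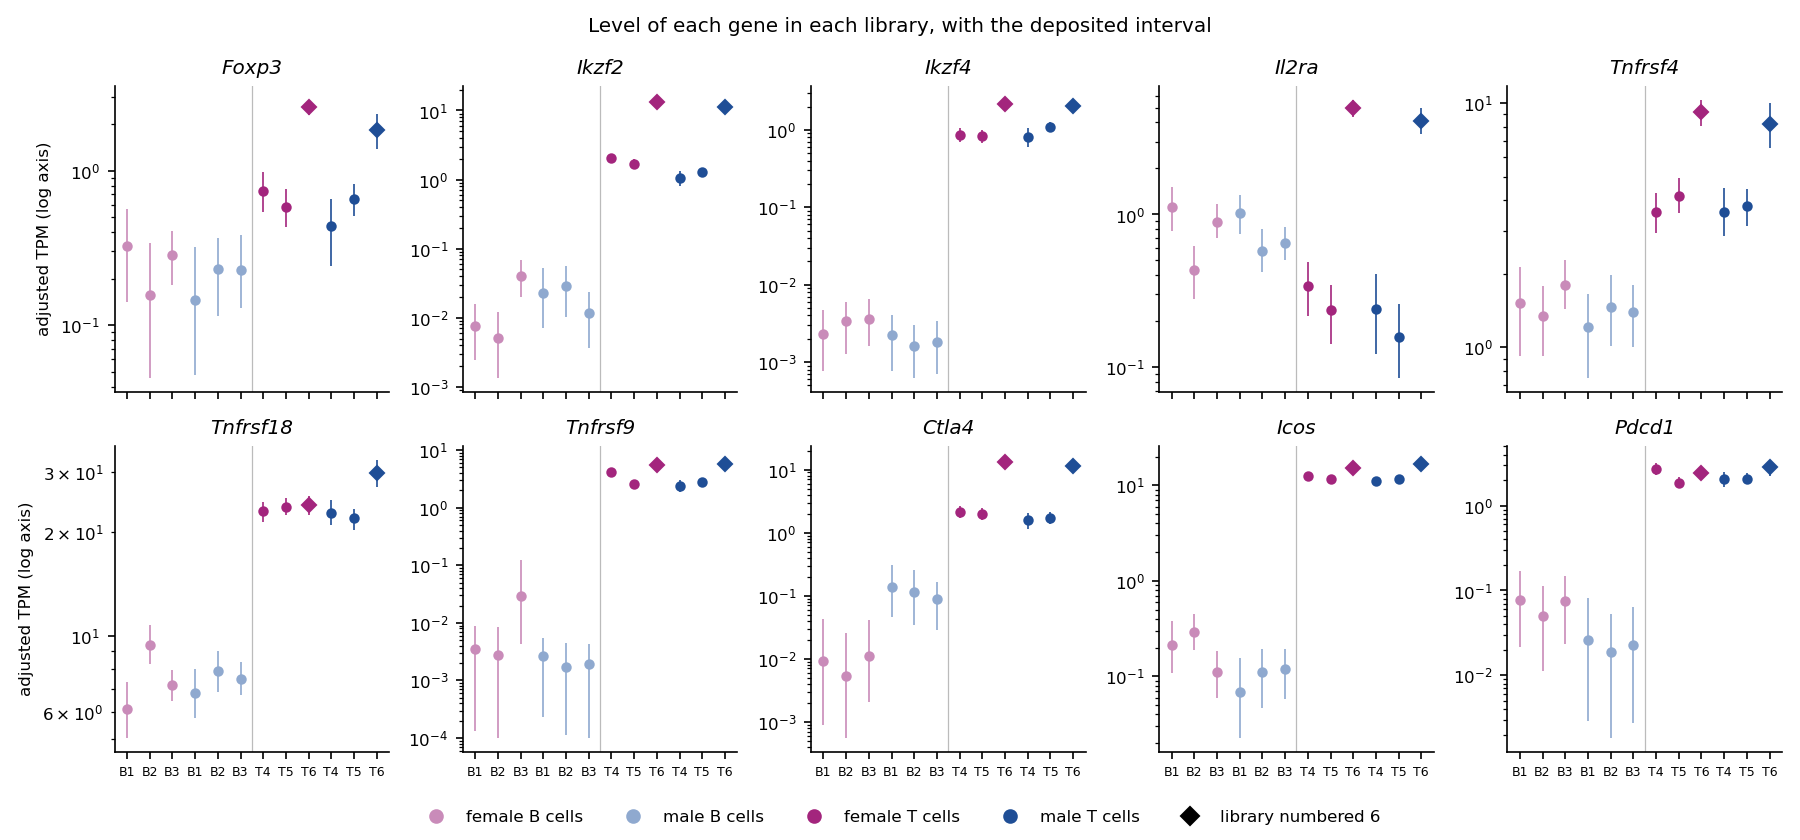
Adjusted TPM of the 10 genes on a log axis in each of the 12 libraries, with bars for the deposited lower and upper bounds and diamonds for the T cell libraries numbered 6. The diamonds stand well clear of the other T cell libraries for Foxp3, Ikzf2, Ikzf4, Il2ra, Tnfrsf4 and Ctla4, and within or near them for Tnfrsf18, Icos and Pdcd1.

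Il2ra encodes the chain that the sort selected against, and its transcript showed the highest ratio of the 10 genes. Il2ra (chromosome 2, 11642807 to 11693193, plus strand) was at 4.999 in female T 6 and 4.11 in male T 6. It was at 0.340 and 0.238 in female T 4 and 5 and at 0.240 and 0.158 in male T 4 and 5, a ratio of 18.7. B cells held between 0.432 and 1.11. The T cell libraries numbered 4 and 5 thus all lay below every B cell library, and those numbered 6 above every one.

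The partners of CD25 and its signalling genes form a list of 10, of which 3 were above all other T cell libraries in both libraries numbered 6, 1 below and 6 neither. The beta chain gene Il2rb, shared by the IL-2 and IL-15 receptors, was at 16.1 and 16.8 in female and male T 6 and between 3.92 and 5.27 in the others. Cish, a feedback inhibitor that STAT5 induces, was at 2.88 and 3.65 against 1.42 to 1.72. Bcl2, a survival factor, was at 66.4 and 78.5 against 49.8 to 56.0. The common gamma chain Il2rg and the kinases Jak1 and Jak3 overlapped between the libraries, while Stat5b was slightly lower, at 57.4 and 59.8 against 60.3 to 63.5. The transcript of IL-2 itself did not exceed 0.216 in any T cell library.

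The 3 tumour necrosis factor receptors, which cosignal for survival and expansion, differed in size. Tnfrsf4 (chromosome 4, 156013843 to 156016612, plus strand) was at 9.16 and 8.18 in female and male T 6. It was at 3.59 and 4.16 in female T 4 and 5 and at 3.58 and 3.80 in male T 4 and 5, a ratio of 2.29. Tnfrsf9 (chromosome 4, 150914562 to 150946102, plus strand) was at 5.48 and 5.81 in female and male T 6, against 4.17, 2.62, 2.41 and 2.80. The spread among the others was wide there, with female T 4 nearest to the libraries numbered 6, and the deposited intervals overlapped.

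Tnfrsf18 (chromosome 4, 156026164 to 156028895, plus strand) was the most abundant of the 10 genes in T cells and moved least among these receptors. It was at 24.1 in female T 6 and 29.6 in male T 6, against 23.0, 23.7, 22.8 and 21.9. Only the male library stood apart. Tnfrsf4 and Tnfrsf18 lie 9.55 kb apart with no protein-coding gene between them, and their ratios were 2.29 and 1.17. The ligands of these receptors, Tnfsf4, Tnfsf18 and Tnfsf9, did not exceed 0.679 in any T cell library.

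Ctla4, Icos and Cd28 form a cluster on chromosome 1 and encode related receptors of the CD28 family, with Ctla4 the one that moved most. Ctla4 (60887000 to 60915832, plus strand) was at 13.2 in female T 6 and 11.4 in male T 6. It was at 2.15 and 1.98 in female T 4 and 5 and at 1.57 and 1.72 in male T 4 and 5, a ratio of 6.65. In B cells it did not exceed 0.136. Icos (60977927 to 61000320, plus strand), which starts 62.1 kb beyond Ctla4, was at 15.1 and 16.7 in female and male T 6 against 12.6, 11.7, 11.1 and 11.6, a ratio of 1.35. Cd28, whose end lies 114 kb before Ctla4, was at 148 and 151 against 121 to 136, a ratio of 1.16. All 3 neighbours had both libraries numbered 6 highest, with unequal ratios.

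Pdcd1 (chromosome 1, 94038305 to 94052553, minus strand) was the exception. It was at 2.42 and 2.83 in female and male T 6 and at 2.69, 1.87, 2.04 and 2.09 in the others, so that female T 6 lay below female T 4. B cells held no more than 0.078. Btla, another inhibitory receptor of T and B cells, likewise overlapped, at 62.4 and 63.7 against 54.2 to 62.5.

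Set side by side, 9 of the 10 genes had both libraries numbered 6 above all 4 others, and in 7 the lower bounds of the former lay above the upper bounds of the latter. In the whole tested set of 12520 genes, 17.0% had both libraries above and 18.6% both below, 1.30% were above with a ratio of at least 2, as were 6 of the 10 genes, and 3.06% had separate bounds of this kind. Since the genes were picked from this difference, nothing is read from these counts. The median ratio of the 10 genes was 2.33 and that of all tested genes 0.989. On log2(adjusted TPM + 1), the differences in females and males were 2.33 and 2.49 for Ikzf2, 2.22 and 2.23 for Ctla4, 2.22 and 2.09 for Il2ra and 1.11 and 0.87 for Foxp3. They were 0.04 and 0.39 for Tnfrsf18. The female and male differences share no library, but female and male T cell libraries of the same number deviated together. Rescaling every library to the same total, which divides male T 6 by its high sum, moved the median of all tested genes to -0.23 and turned Tnfrsf18 to -0.04, leaving 6 genes with both libraries highest. Scaling by median ratios gave 0.24 for Tnfrsf18 and left 9. Of the 12520 tested genes, 148 had both libraries numbered 6 highest at equal totals and 2395 under median ratios, against 2123 without rescaling.

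**Figure D2:**
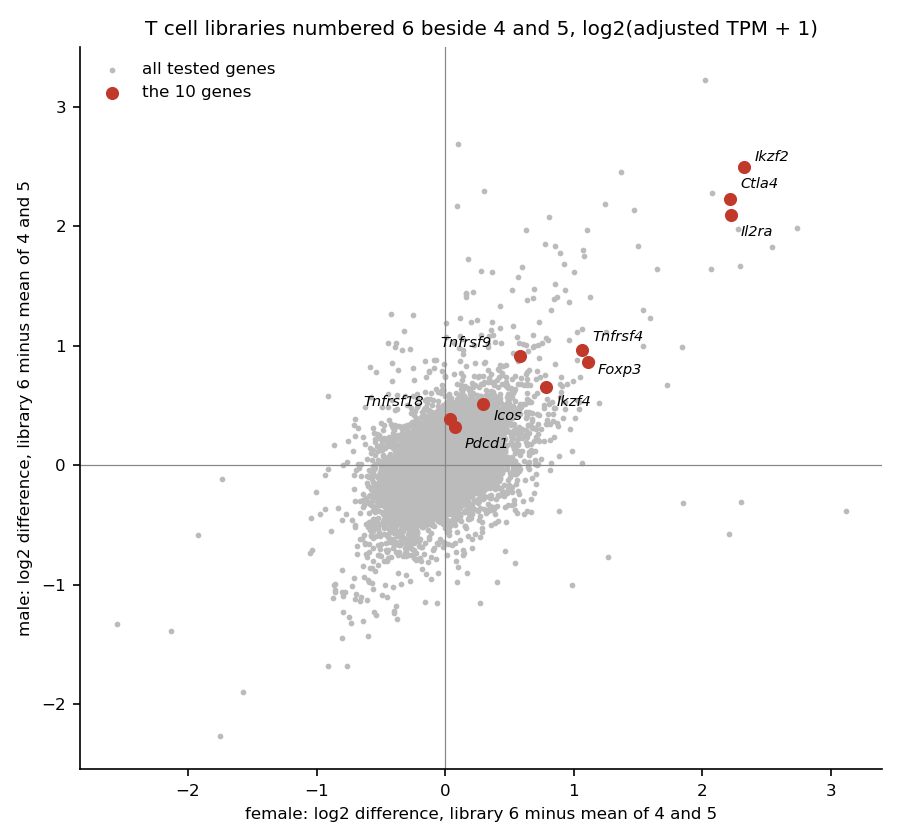
Log2 difference between library 6 and the mean of libraries 4 and 5 in female (horizontal) and male (vertical) T cells, on log2(adjusted TPM + 1), for the 12520 tested genes in grey and the 10 genes in red. Ikzf2, Ctla4 and Il2ra lie above 2 in both sexes, and Tnfrsf18 and Pdcd1 lie within the cloud of all genes.

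Some markers of other cells moved with the same libraries. Of the 6 B cell markers, 3 were above all other T cell libraries in both libraries numbered 6, and their sum was 5.79 in female T 6 and 2.61 in male T 6, against 0.900 to 2.01. Pax5 was near 0, at no more than 0.0022 in any T cell library. Of the 4 monocyte and macrophage markers, the sum was 5.34 and 2.43 against 1.07 to 1.57, with Lyz2 at 2.52 and 1.22. Cd68 in that list overlapped, at 1.07 and 0.723 against 0.495 to 1.21. Among the 3 tested genes of that list, Lyz2 and Adgre1 had both libraries numbered 6 above all others, with ratios of at least 2. Adgre1 was at 0.792 and 0.197 against 0.0167 to 0.0374. Csf1r, under the filter, was at 0.964 and 0.296 against 0.0487 to 0.163. Of the 4 dendritic cell markers the sum was 3.29 and 2.84 against 1.83 to 2.51, with Siglech near 0, at 0.001. Most of the dendritic cell sum was Zbtb46, which overlapped, at 2.59 and 2.32 against 1.72 to 2.39. Zbtb46 was also higher in T than in B cells. The other tested dendritic cell markers, Itgax and Flt3, had both libraries numbered 6 above all others, with ratios of at least 2. Itgax was at 0.499 and 0.394 against 0.0372 to 0.0571, and Flt3 at 0.198 and 0.123 against 0.0651 to 0.0953. All 3 of these sums were higher in female T 6 than in male T 6. The female library was the higher one for Foxp3, Ikzf2, Ikzf4, Il2ra, Tnfrsf4 and Ctla4, and the male one for Tnfrsf9, Tnfrsf18, Icos and Pdcd1. This split depends on scaling. With every library rescaled to the same total, the female library was higher for the latter genes too. Female and male T 6 were then at 6.85 and 4.00 for Tnfrsf9 and 30.1 and 20.4 for Tnfrsf18. They were at 18.9 and 11.5 for Icos and 3.03 and 1.95 for Pdcd1.

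The rise of Cd79b in female T 6 over female T 4 and 5 was 0.142% of its B cell mean, and that of H2-Aa, a class II antigen presentation gene, 0.454%. The highest B cell level was 0.136 for Ctla4, 0.040 for Ikzf2 and 1.11 for Il2ra, and the part of B cells in the difference by library number was not tested. For monocytes and dendritic cells, whose own levels of the 10 genes were not measured, their part was not tested either. In no other list of cell type markers were both libraries numbered 6 highest: the 4 erythroid markers summed to 25.3 and 9.50 against 2.24 to 65.0, the 2 neutrophil markers to 0.108 and 0.198 against 0.0461 to 2.56, the 3 plasma cell markers to 25.8 and 26.8 against 24.8 to 31.3, the 5 natural killer cell markers to 12.7 and 15.0 against 15.5 to 18.1, and the 2 CD8 T cell markers to 6.90 and 5.48 against 6.94 to 8.27.

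**Figure D3:**
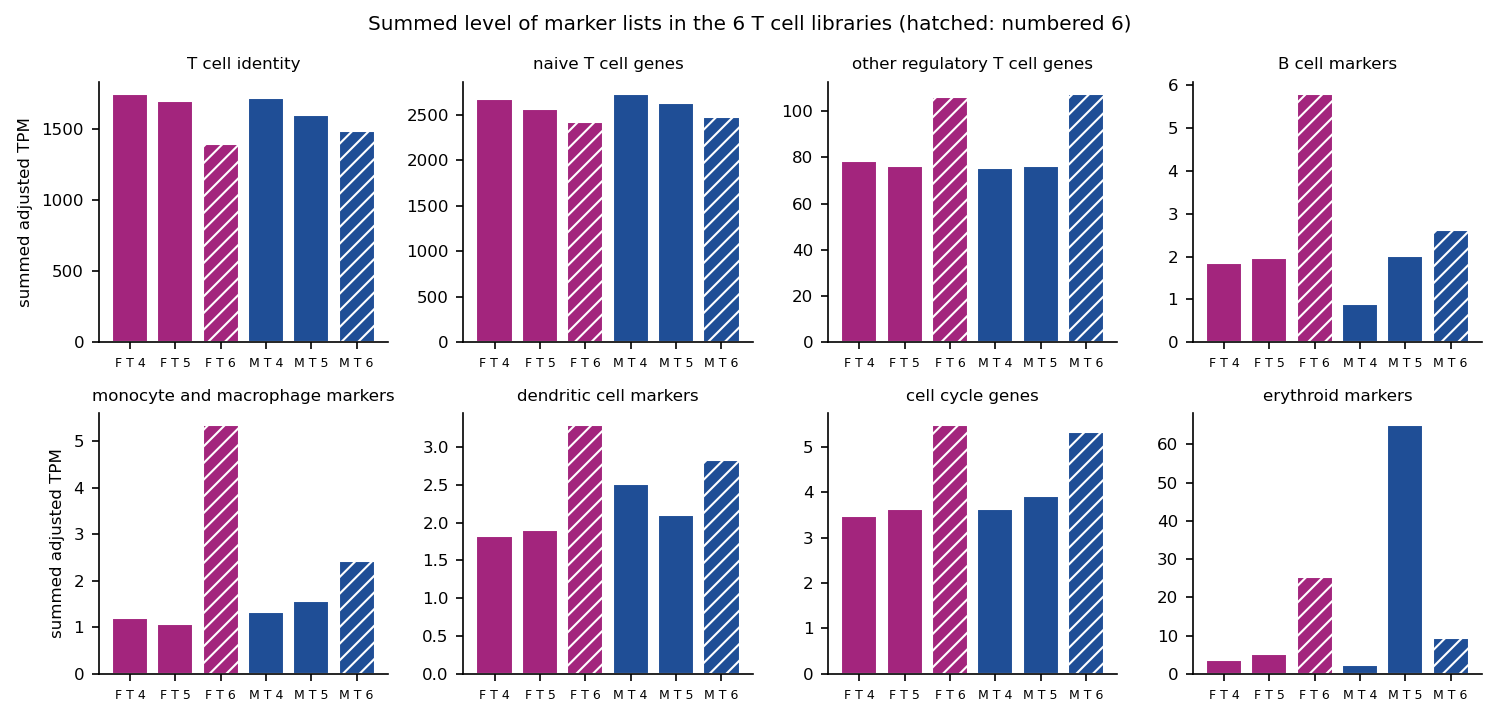
Summed adjusted TPM of 8 gene lists in each of the 6 T cell libraries, as bars from 0, female in purple and male in blue, with the libraries numbered 6 hatched. The T cell identity sum is lowest in those libraries, at 1397 and 1485, and the sum of other regulatory T cell genes highest, at 106 and 108.

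Genes of related programs were taken from lists. Among 22 other regulatory T cell genes, 11 were tested, and of these 9 had both libraries numbered 6 above all others, none below and 4 a ratio of at least 2. Those 4 were Nrp1, Entpd1, Ccr6 and Cd83, and the last 3 were higher in B cells, at means of 7.96, 40.8 and 102. Entpd1, the ectoenzyme CD39, was at 0.779 and 0.444 against no more than 0.0030. Ccr6 was at 0.0530 and 0.011, and Cd83 at 1.23 and 0.956 against 0.145 to 0.262. Nrp1, a surface receptor of thymus-derived regulatory T cells, was at 5.24 and 3.24 against 0.738 to 1.08. Nt5e, which encodes the adenosine-forming ectoenzyme CD73, was at 17.7 and 19.4 against 8.64 to 11.5. Gpr83 was at 6.30 and 6.66 against 3.53 to 4.78, and Izumo1r, the folate receptor FR4, at 38.0 and 41.7 against 32.3 to 34.2. Lrrc32, which anchors latent TGF-β on activated regulatory T cells, was named after its values were seen and lay under the filter. It was at 1.55 and 1.36 against no more than 0.0336. B cells held Lrrc32 at up to 0.446, less than either library numbered 6. Il10 did not exceed 0.015 in any T cell library, and the tested genes Ebi3 and Capg overlapped.

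In the effector and memory list, with 20 tested genes of 26, 6 were above, 1 below and 13 neither, and 5 had a ratio of at least 2, namely S100a4, S100a6, Maf, Cxcr3 and Tbx21. S100a4 and S100a6, calcium-binding proteins of antigen-experienced cells, were at 2.77 and 3.54 against 0.201 to 0.496 and at 1.29 and 1.53 against 0.121 to 0.295. Maf, a factor of helper and regulatory subsets, was at 2.64 and 2.61 against 0.642 to 0.828. Cxcr3 and Tbx21, a receptor and a factor of type 1 helper cells, were at 0.658 and 0.660 against 0.110 to 0.176 and at 0.407 and 0.236 against 0.0508 to 0.0902. All but Maf of these 5 were higher in B cells, at means of 3.17 for S100a4, 4.21 for S100a6, 0.915 for Cxcr3 and 1.66 for Tbx21. The 1 below was Lgals1, at 34.9 and 26.9 against 35.6 to 46.3. These 5 and Lgals1 were named after their values were seen. Cd44, whose protein the sort selected low, was at 9.86 and 5.89 against 7.36 to 10.7, and Ifng, Il4 and Il17a, the cytokines of the 3 classical helper lineages, did not exceed 0.107. Of the 4 tested follicular helper genes of 8, 2 were above, among them Cxcr5 at 3.39 and 2.97 against 0.932 to 1.14, a gene that B cells held at 150.

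Early activation genes split: of 12 tested of 13, 6 were above, 3 below and 3 neither. Cd69, an early surface marker, was at 64.1 and 97.3 against 41.9 to 49.98. Fos was at 45.2 and 41.5 against 108 to 189, and Junb at 112 and 97.7 against 161 to 269. The naive T cell list of 11 had 2 above, 4 below and 5 neither. Among the 4 below, Ccr7, the lymph node homing receptor, was at 204 and 208 against 237 to 259. S1pr1, the egress receptor, also below, was at 236 and 230 against 286 to 313. The 2 above were Bach2, at 32.8 and 29.8 against 19.9 to 23.9, and Lef1, at 274 and 283 against 257 to 269. Of the 7 T cell identity genes, 6 were below and 1 was neither. Cell cycle genes summed to 5.47 and 5.32 against 3.47 to 3.91, with 2 of 4 above. The 4 tested ligand genes of 9 were all above, with ratios of 1.12 to 1.86, and all 4 were higher in B cells. The 14 family relatives had 3 above, 3 below and 8 neither.

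**Figure D4:**
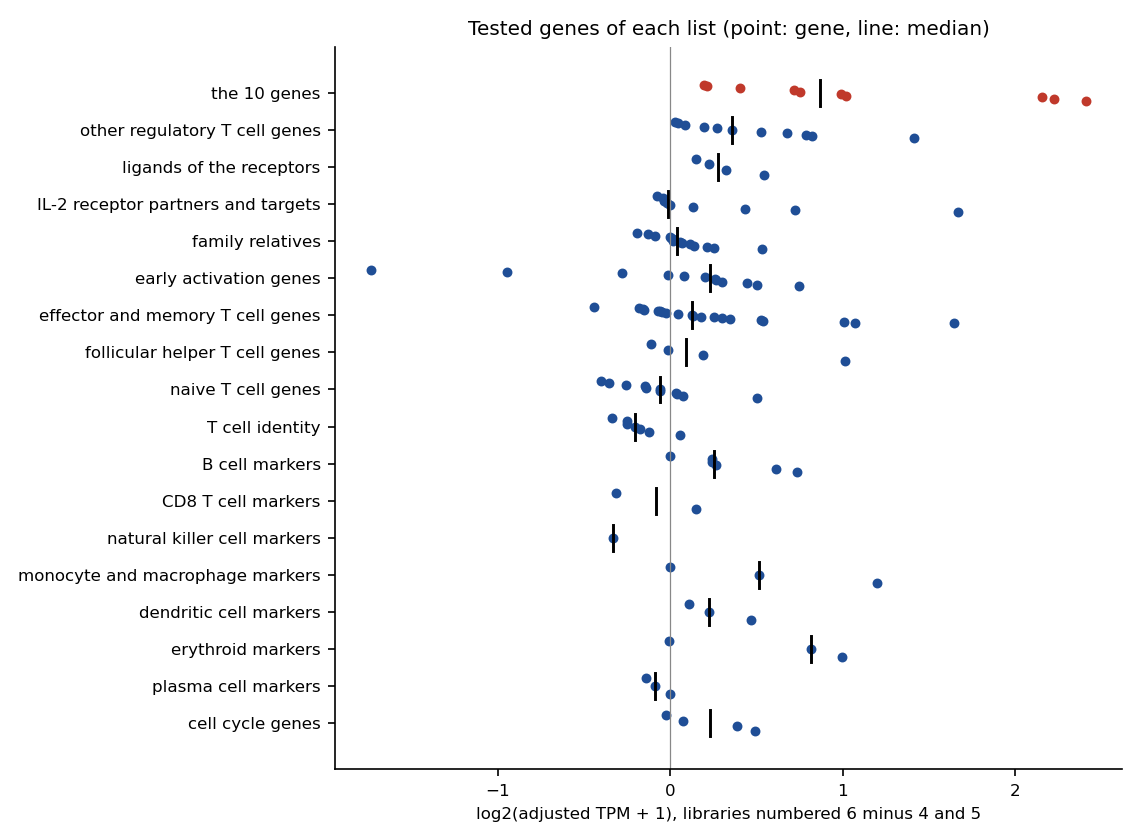
Difference on log2(adjusted TPM + 1) between the mean of the 2 T cell libraries numbered 6 and that of the 4 others, for each tested gene of each list (blue points) and for the 10 genes (red points), with a vertical line at each median. The median is 0.87 for the 10 genes, 0.36 for other regulatory T cell genes and -0.21 for T cell identity genes.

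Among genes outside the 10, those with the largest difference of the same kind, with both libraries numbered 6 highest and a mean of at least 2 there, were H2-Aa, H2-Eb1, Gm25395, Cd74, H2-Ab1, Cxcr4, Gm4956, Il2rb, S100a4, Ms4a4c, Ddit4 and Coro2a. They were the first 12 of 1734 by the log2 difference over the 6 T cell libraries, from 2.36 for H2-Aa to 1.42 for Coro2a. H2-Aa, H2-Eb1, H2-Ab1 and Cd74 belong to class II antigen presentation. H2-Aa was at 12.3 in female T 6 and 5.85 in male T 6 against 0.170 to 1.57, and at 2201 or more in B cells. Cxcr4, a chemokine receptor, was at 66.7 and 101 against 17.4 to 27.0, and Ddit4, a stress-induced inhibitor of mTOR signalling, at 80.9 and 139 against 34.9 to 41.3. In the other direction the first 6 of 2151 were Fosb, Fos, Jun, Hist1h4m, Mogat1 and Hist1h4a. Fosb, an immediate early gene like Fos and Jun, was at 5.72 and 4.26 against 16.9 to 27.5.

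Against B cells, T cells held higher means of all 10 genes, and the 2 cell types did not overlap in 9 of them, Il2ra being the exception. In all tested genes, 53.9% did not overlap in one direction or the other. By limma on log2(adjusted TPM + 1), 8 of the 9 tested genes passed a Benjamini-Hochberg adjusted p of 0.05 as higher in T cells, beside 41.6% of all tested genes, with 31.4% higher in B cells. Nothing is read from these counts. The genes were chosen from high values in T cell libraries that enter the fit, and 6 of the 9 reached 1 adjusted TPM in no B cell library, so that they passed the filter through T cells alone. Only Tnfrsf4 and Tnfrsf18 reached it in B cells by themselves, with 1.21 to 1.81 and 6.10 to 9.41 there. The differences are therefore given as sizes.

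Icos differed by 3.60 (SE 0.10), its T cell libraries lying between 11.1 and 16.7 and its B cell libraries between 0.068 and 0.290. The other differences were 2.22 for Tnfrsf9 (SE 0.17), 2.17 for Ctla4 (SE 0.43), 2.10 for Ikzf2 (SE 0.47), 1.66 for Pdcd1 (SE 0.08), 1.57 for Tnfrsf18 (SE 0.10), 1.30 for Tnfrsf4 (SE 0.21) and 1.16 for Ikzf4 (SE 0.15). These SEs take the libraries as independent, although female and male T cell libraries of the same number deviated together. For genes near 0 in B cells the size depends on the pseudocount, and so does the order. With 0.1 in place of 1 the differences were 5.75 for Icos, 5.14 for Tnfrsf9, 4.73 for Ikzf2, 4.57 for Ctla4, 4.06 for Pdcd1 and 3.67 for Ikzf4, beside 1.72 for Tnfrsf4 and 1.68 for Tnfrsf18. Among all tested genes that passed, 57.02% were higher in T cells, and this share was 47.7% under median-ratio scaling and 29.2% when totals were equalized, where the median of all genes was -0.25 in place of 0.09.

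Il2ra differed by 0.21 (95% interval -0.71 to 1.14), and its sign was not fixed. It was -0.16 without female T 6, -0.14 without male T 6, -0.51 (SE 0.12) without both and -0.06 with a pseudocount of 0.1. Without both libraries numbered 6, the difference was 1.29 for Ikzf2 and 1.43 for Ctla4, with an SE of 0.06 for each, while Icos kept 3.47 and Pdcd1 1.59. The libraries left out are those whose high values led to the choice of genes. The lower differences and smaller SEs of Il2ra, Ikzf2 and Ctla4 follow from that choice, and nothing is read from them. For Foxp3, outside the tested genes, the means on this scale differed by 0.71.

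**Figure D5:**
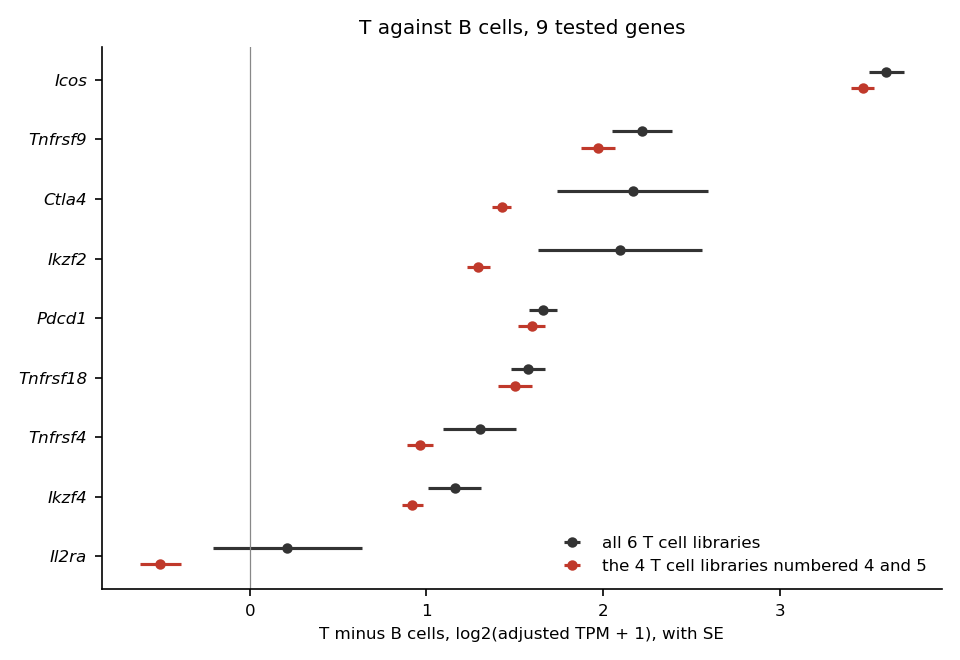
T minus B cell difference on log2(adjusted TPM + 1) with its SE from limma for the 9 tested genes, with all 6 T cell libraries (black) and with the 4 numbered 4 and 5 (red). Il2ra moves from 0.21 to -0.51, and the other 8 genes stay above 0.

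Of the 9 ligand genes of these receptors 4 were tested, and all 4 were higher in B cells by limma. Among the 5 that were not tested, Tnfsf4 and Il2 averaged 0.135 and 0.1 in T cells, above 0.068 and 0.025 in B cells. The others, Cd80, Tnfsf18 and Tnfsf9, averaged 0.034, 0.053 and 0.510 in T cells, below 0.656, 0.333 and 0.722 in B cells. Icosl, the ligand of ICOS, averaged 99.1 in B and 1.71 in T cells, and Cd86, a ligand of CTLA-4 and CD28, at 19.3 and 3.11. Pdcd1lg2 and Cd274, the ligands of PD-1, were at 6.02 and 0.317 and at 16.7 and 8.74. Of the 10 IL-2 receptor partners and targets, all 10 were higher in T cells, led by Socs3, a feedback inhibitor of cytokine signalling, with a difference of 2.82, and Il2rb, with 2.46. The smallest differences were 0.31 for Jak3 and 0.42 for Il2rg. The counts of the lists were not taken under the other scalings, where the share of genes higher in T cells changed. Of the family relatives 7 were higher in T cells, among them Cd28 at 6.91 and Cd27 at 5.38, and 7 in B cells, among them the BAFF receptor gene Tnfrsf13c at -7.27 and Cd40 at -5.86. Of the other regulatory T cell genes 4 were higher in T and 6 in B cells, the latter led by Cd83 at -6.13 and Swap70 at -6.01, which B cells also use. Without the libraries numbered 6, an alternative for lists chosen after seeing the data, these counts were the same for the first, second and last of these lists, and the family relatives had 6 higher in T cells.

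No sex difference was called at an adjusted p of 0.05. Of the 9 tested genes, 0 passed between female and male T cells, where 0.104% of all tested genes did, and 0 between female and male B cells, where 0.144% did. The smallest unadjusted p by limma among the 9 was 0.53 between the T cell groups and 0.37 between the B cell groups, so 0 of the 9 had an unadjusted p under 0.05 in that fit. In T cells, female minus male was 0.34 for Ikzf2 (95% interval -1.09 to 1.78), 0.21 for Ctla4 (-1.11 to 1.53), 0.15 for Il2ra (-1.16 to 1.45), 0.02 for Icos (-0.29 to 0.32) and 0.00 for Pdcd1 (-0.24 to 0.25). Female and male T cell libraries of the same number deviated together, and with the number as a block the intervals were narrower, at 0.12 to 0.57 for Ikzf2, 0.02 to 0.40 for Ctla4 and -0.08 to 0.37 for Il2ra. The unadjusted limma p was then 0.0081 for Ikzf2 and 0.038 for Ctla4, beside 3.33% of all tested genes under 0.05, and the adjusted p was 1.00 for both. With libraries paired by number, female was above male in 3 of 3 pairs for Ikzf2, Ctla4, Il2ra and Tnfrsf4. It was above in 2 of 3 for Foxp3, Ikzf4, Tnfrsf18 and Icos, and in 1 of 3 for Tnfrsf9 and Pdcd1. The share over all tested genes was not counted, and nothing is read from these pairs. The test of whether the sex difference itself differed between T and B cells also called 0 of the 9, with a smallest unadjusted p of 0.57. With the block, limma gave 0.018 for Ctla4 and 0.036 for Ikzf2, beside 2.88% of all tested genes under 0.05, and an adjusted p of 1.00.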

How the data were processed

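RNA sequencing covered 12 libraries. Per the labels, reads were trimmed with Trim Galore, checked with FastQC and aligned with STAR to mm10. The authors deposited a signal named adjusted TPM, with lower and upper bounds. Its quantifier, adjustment and interval level are not given in the sources used here, so depth is unknown and no counts were used. Some label fields name genomic DNA, and the values were treated as RNA. The 10 genes, the lists and the split by library number were chosen with earlier results of these data known. Groups came from the labels. From the deposited signal, log2(adjusted TPM + 1) was fitted with limma 3.58.1 in R 4.3.3, with a mean-variance trend, over 12520 genes at 1 or more in at least 3 libraries, tested on simulated data first. P-values were adjusted by Benjamini-Hochberg over all of them and measure the spread between pools, taken as independent. The T against B fit has no term for the library number. All 154 listed names were found, 3 by an older symbol, and 40254 gene IDs matched GENCODE M21. Named genes were all 10, up to 4 per list that passed in T against B cells by size, and the 12 and 6 of largest difference by library number, antigen receptor segments left out. Others are marked as named after their values were seen, or stand for their list in the comparison of library numbers. The labels do not say that numbers mark shared pools, but female and male T cell libraries of the same number deviated together (correlation of deviations 0.72, 0.55 and 0.52), whereas B cell libraries did not (-0.17, -0.04 and -0.34).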

Additional observations from a re-analysis of the deposited data

How the results depend on the processing

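Depth is unknown, and 3 libraries per group limit the precision, as do the levels near 0 in B cells, where the deposited bounds are wide. With 9 genes tested, the count called between T and B cells was 8 and stayed at 8 or 9 under each alternative tried. The count without both libraries numbered 6 includes Il2ra as lower in T cells. Because the genes were chosen from high values in T cell libraries, nothing is read from this count or its stability. The count with both libraries numbered 6 highest lay between 6 and 10, and between 9 and 10 when single T cell libraries were left out. Over all 12520 tested genes it was 2123, and 148 at equal totals, 2395 under median ratios and 2123 with a pseudocount of 0.1. It was not taken over all genes with libraries left out. The 0 calls by sex and for the difference between the sex effects held under all alternatives run, the replicate block included (0 calls). Over all tested genes that block gave 10 calls by sex in T cells and 14 in B cells, against 13 and 18 without it. Reversals were those of Il2ra in T against B cells with a pseudocount of 0.1 (-0.063), without female T 6 (-0.16), without male T 6 (-0.14; -0.16 to 0.41 over all single libraries) and without both (-0.51), and of Tnfrsf18 between library numbers at equal totals (-0.038). Over all genes, T against B calls went from 9134 to 24591 with no filter. Calls by sex in T cells were 23 at equal totals, 24 with a pseudocount of 0.1, 10607 with no filter and 28 with the looser filter. In B cells they were 36, 23, 10985 and 34, in the same order. For the difference between the sex effects, 0 calls (295 at an unadjusted p under 0.05, limma) became 16, 1, 11201 and 2, and 3 without the trend, 3 without both libraries numbered 6 and 0 to 3 when single libraries were left out, the 3 being without female T 6. With no filter, the genes called by sex in T cells had a median highest value of 0.0047 adjusted TPM.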
